A study of Mus musculus with 14 samples.

Results

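Wheel running can reach the suprachiasmatic nucleus (SCN), the hypothalamic nucleus that holds the master circadian clock, through arousal pathways that do not carry light. Serotonin arrives from the raphe, neuropeptide Y (NPY) from the intergeniculate leaflet of the thalamus, and orexin from neurons of the lateral hypothalamus. The genes described here encode the receptors for these 3 ligands. They were chosen by symbol in the gene column of the deposited expression table as Htr1a, Htr1b, Htr2a, Htr2c, Htr7, Npy1r, Npy2r, Npy5r, Hcrtr1 and Hcrtr2, which makes 10 of the 55401 genes in the table. All 10 are G protein-coupled receptors. Htr1a, Htr1b and the 3 NPY receptors act through inhibitory Gi/o proteins, Htr2a, Htr2c and Hcrtr1 mainly through Gq, and Htr7 through Gs. Serotonin agonists that act on Htr1a and Htr7, and NPY itself, shift circadian rhythms of rodents in the subjective day.

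RNA was measured by total RNA sequencing of SCN cut by laser from 20 µm brain sections stained with cresyl violet. All mice were of the C57BL/6 strain, over 8 weeks old and mostly male. The genotypes were wild type (Vipr2+/+) and Vipr2-/-, a line bred from a separate stock without VPAC2, the receptor for the SCN peptide VIP. The labels name no tissue limit for that loss. After 14 days in 12 h of light and 12 h of dark all groups were kept in constant darkness. The mice without scheduled exercise (nSVE) stayed in free run. The mice with scheduled voluntary exercise (SVE) ran free for 14 days and could then use the wheel during 6 h of every 24 h. The SVE schedule took 35 to 40 days to entrain wild-type mice and 6 to 9 days to entrain Vipr2-/- mice. The nSVE mice were killed at circadian time 14 and the SVE mice 2 h after the wheel opened, which the protocol calls time 14, while the design text gives circadian time 24 for wild-type SVE. Comparisons that use wild-type SVE, the interaction among them, also hold the days to entrain and, by the design text, the circadian time. These cannot be told apart from exercise or genotype. Mice that failed to entrain, and arrhythmic nSVE Vipr2-/- mice, were left out by the authors. There were 4 libraries of each wild-type group and 3 of each Vipr2-/- group, 14 in all. Since no label ties each library to its own animal, the spread behind every p-value may be technical.

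Library depth and quality touch the receptors because most are expressed at modest levels. The deposited values, read counts divided by a size factor per library, corresponded to 17709080 to 48794679 reads per library. Vipr2 itself stood between 90.9 and 244 in the 6 Vipr2-/- libraries and between 6247 and 10031 in the 8 wild-type libraries. All 11 SCN neuron markers examined were tested. Their summed level was 47150.5 to 50449.7 in wild-type nSVE and 54840 to 63225 in wild-type SVE. It was 37856 to 40964 in Vipr2-/- nSVE and 36118 to 41116 in Vipr2-/- SVE, below both wild-type groups. The sum weighs the abundant markers most. Under nSVE 6 of the 11 markers had fitted genotype differences (Vipr2-/- minus wild type) above 0 and 5 below. Under SVE 2 lay above and 9 below. The share of the 18175 tested genes with no read was 1.22% to 8.23% in wild type and 3.99% to 20.7% in Vipr2-/-. Vipr2-/- nSVE library 3 (20.7%) and Vipr2-/- SVE library 3 (16.3%) were the sparsest. Among tested genes with a mean of 50 to 200, the range in which Htr1b, Htr2a, Npy2r and Hcrtr1 lie, 26.1% and 15.5% had no read in those libraries, against 0.233% to 6.32% in the other 12. Where a receptor had no read, a count of 0 allows a value of up to 2.06 to 4.60 depending on the library (3 reads), for counting error only.

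The letters upstream of 3 receptors are shown first, and no expression result below rests on them. Npy2r is the receptor whose wild-type SVE libraries stood apart from every other library, Htr1a had the smallest adjusted p of the 10 over both conditions, and Npy5r had the highest level. The stretches are RefSeq sequence of the build GRCm38.p6, written 5′ to 3′ on the strand of the gene, and end before the first annotated base of the gene. Capitals mark the E-box CACGTG, the motif bound by CLOCK and BMAL1.
Npy2r, 250 bases of the minus strand at chr3:82548086-82548335: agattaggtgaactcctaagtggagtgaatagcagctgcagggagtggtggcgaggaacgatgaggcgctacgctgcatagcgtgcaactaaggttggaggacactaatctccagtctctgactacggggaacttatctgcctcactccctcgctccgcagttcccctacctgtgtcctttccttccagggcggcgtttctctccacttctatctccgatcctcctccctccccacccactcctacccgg
Htr1a, 196 bases of the plus strand at chr13:105443443-105443638: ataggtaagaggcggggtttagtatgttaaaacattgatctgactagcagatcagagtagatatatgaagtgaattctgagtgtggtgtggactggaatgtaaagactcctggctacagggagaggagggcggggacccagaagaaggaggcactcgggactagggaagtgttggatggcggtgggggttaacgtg
Npy5r, 216 bases of the minus strand at chr8:66688129-66688344: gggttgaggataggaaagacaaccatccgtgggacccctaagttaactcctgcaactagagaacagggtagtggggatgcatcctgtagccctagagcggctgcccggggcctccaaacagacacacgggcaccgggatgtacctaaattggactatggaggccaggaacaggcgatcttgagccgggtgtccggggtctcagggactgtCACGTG

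All 10 receptors matched a RefSeq start, and the 250 bases before each were searched on both strands for 5 motifs. The E-box CACGTG was found before Npy5r only, and 6.02% of 32851 RefSeq promoters of the same length hold it. In Npy5r it occupies the last bases before the start that GENCODE gives the gene. The cAMP response element TGACGTCA, which 1.55% of promoters hold, and the D-box TTATGTAA, which 0.819% hold, matched before none of the 10. The shorter TGACG, which lies within TGACGTCA and occurs in 17.8% of promoters, matched before Htr7. The nuclear receptor half-site AGGTCA, present in 14.0% of promoters, matched before Htr2c, Hcrtr2 and the farthest upstream of several RefSeq starts of Hcrtr1. By the start that GENCODE gives, the matches of Htr7, Hcrtr1 and Hcrtr2 lie inside the gene. All matches describe letters in a window and not binding.

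Most of the receptor genes lie far apart, and Npy5r and Npy1r are neighbours. In GRCm38 Htr1a lies at chr13:105443639-105448122, Htr1b at chr9:81628291-81633828, Htr2a at chr14:74640840-74709494, Htr2c at chrX:146962513-147197277 and Htr7 at chr19:35958734-36057507. The NPY receptor genes lie at chr8:66697192-66706792 (Npy1r), chr3:82538383-82548084 (Npy2r) and chr8:66679965-66688128 (Npy5r). The orexin receptor genes lie at chr4:130130217-130139359 (Hcrtr1) and chr9:76225880-76323856 (Hcrtr2). Npy5r and Npy1r are transcribed away from each other from starts 9064 bp apart. Htr1b shares exon sequence with an antisense gene, D430036J16Rik, which had a mean value of 17.7 and reached 62.2. Whether the counting used strand is not given in the sources used here, so reads of those genes could not be told apart for certain.

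Levels differed widely between the receptors once they were divided by exonic length. Npy5r had the highest mean over the 14 libraries, 148 normalized reads per exonic kb, followed by Htr2c at 117, Npy1r at 112 and Htr7 at 95.3. Over 14000 tested protein-coding genes the median was 116 per kb, and these 4 receptors stood between its 45.2 and 56.0 percentiles. A middle group held Htr1a at 52.9 per kb, Npy2r at 44.5, Htr1b at 34.9 and Hcrtr1 at 30.1. Htr2a was low at 11.2 per kb, and Hcrtr2 was lowest at 2.01 per kb with no read in 7 of 14 libraries. Npy5r ranked highest of the 10 in 8 libraries, Htr2c in 3, Npy1r in 2 and Htr7 in 1.

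**Figure D1:**
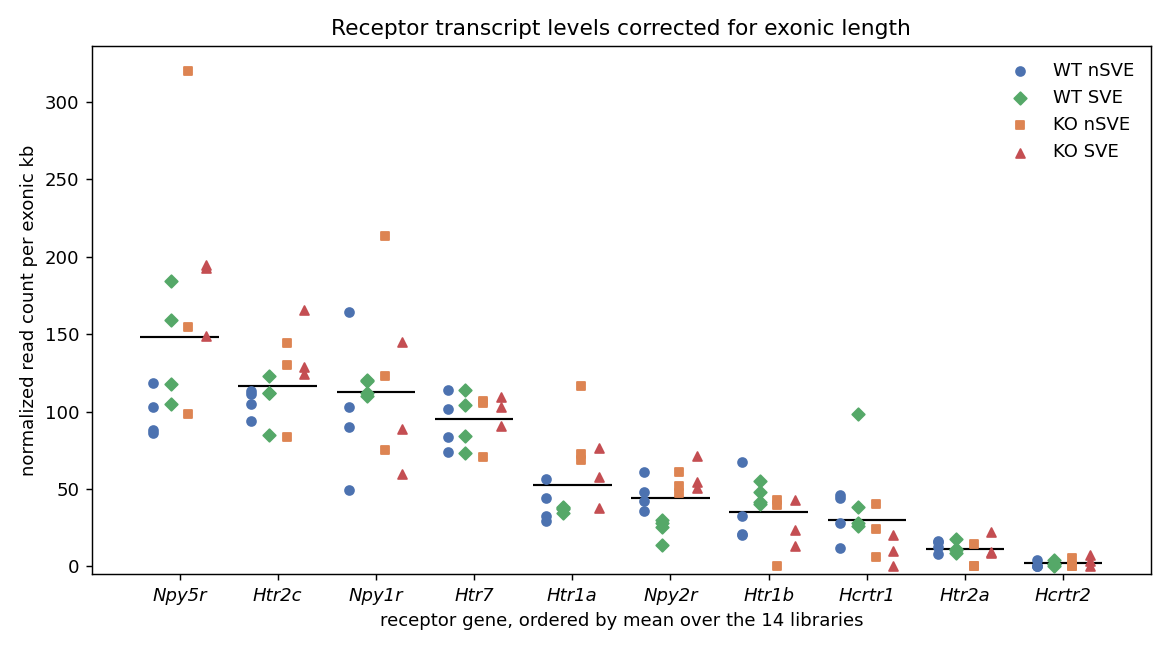
Normalized read count per exonic kb of each receptor gene in each of the 14 libraries, with symbols by group (WT, wild type, KO, Vipr2-/-) and a line at the mean over libraries. Npy5r, Htr2c, Npy1r and Htr7 lie on the left with means of 95.3 to 148 and overlapping libraries, and Hcrtr2 on the right has a mean of 2.01.

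The order of neighbouring receptors was mostly within the spread of the libraries. In wild-type nSVE the per-kb ranges of the 4 highest receptors overlapped in order (Htr2c, Npy1r, Npy5r, Htr7), and a gap lay between Htr7 at 93.2 ± 17.98 (SD, n = 4) and Npy2r at 47.0 ± 10.6. In wild-type SVE the ranges of Htr1b (46.4 ± 6.79), Htr1a (36.8 ± 1.61) and Npy2r (24.4 ± 7.43) did not overlap. In Vipr2-/- nSVE gaps lay between Htr1a (86.1 ± 26.3, n = 3), Npy2r (53.4 ± 6.70) and Htr1b (27.6 ± 23.7). In Vipr2-/- SVE a gap lay between Htr2c (140 ± 22.7) and Htr7 (101 ± 9.52), next in the order.

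**Figure D2:**
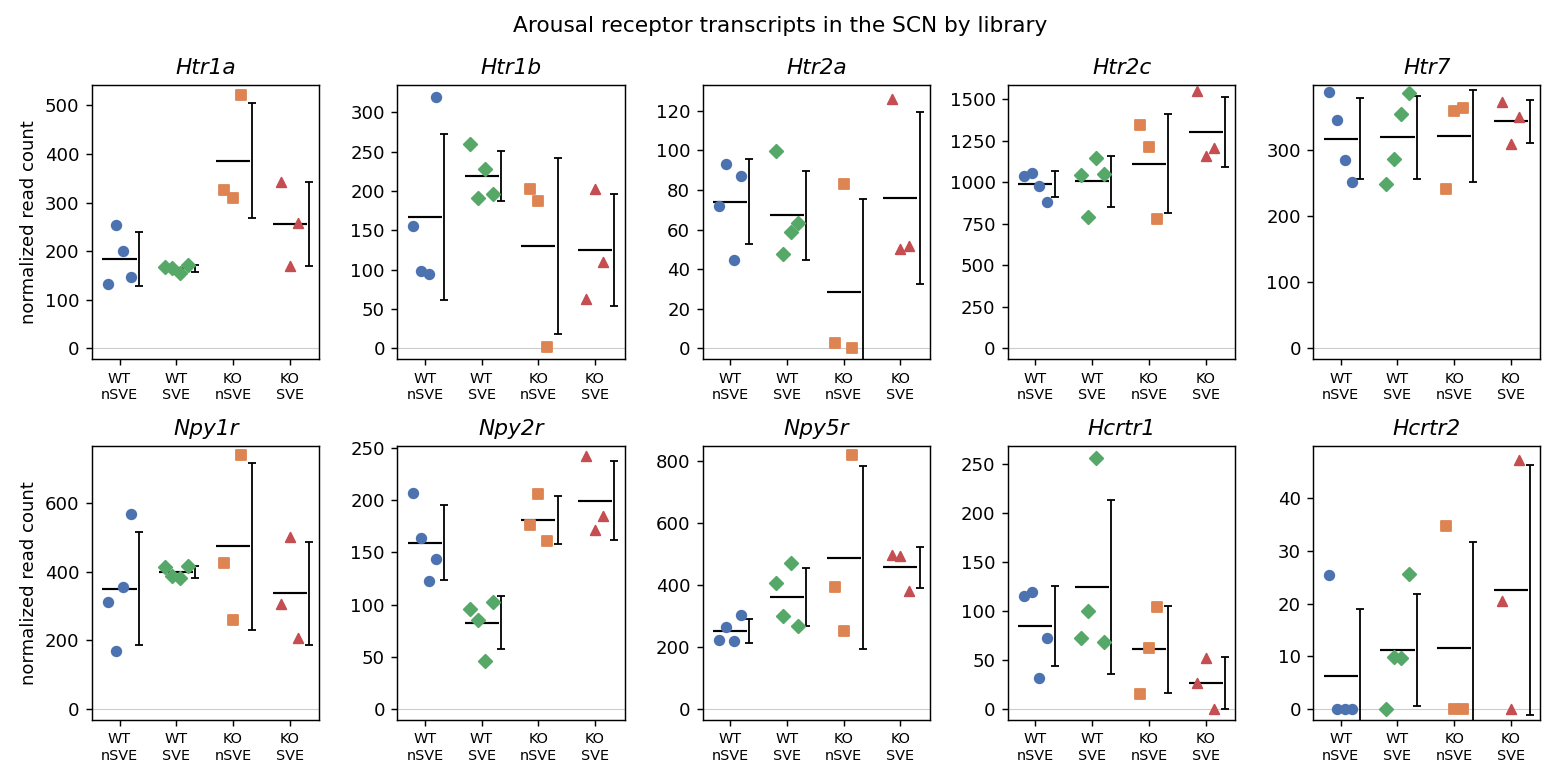
Normalized read count of the 10 receptor genes in each library, by group (WT, wild type, KO, Vipr2-/-), on linear axes. The line marks the group mean and the bar to its right the SD, cut off below 0. For Npy2r the 4 wild-type SVE libraries lie between 46.3 and 103, below all others, and for Htr2a and Hcrtr1 Vipr2-/- libraries reach 0.

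No receptor passed the threshold in any comparison. Differences between groups were tested over all 18175 genes with limma on log2(value + 1), in 7 comparisons, with calls at a Benjamini-Hochberg adjusted p under 0.05. Between the genotypes under nSVE 0.611% of the tested genes were called, and 0.176% under SVE. With exercise 1.28% were called in wild type and 0.116% in Vipr2-/- mice. The interaction called 0.022%, the genotypes averaged over conditions 1.18% and exercise averaged over genotypes 1.45%. At an unadjusted p under 0.05, 3 of the 10 receptors were found between the genotypes under nSVE, beside 14.3% of all genes. The numbers were 2 under SVE (15% of genes), 1 with exercise in wild type (12.5%), 1 with exercise in Vipr2-/- (13.8%) and 1 in the interaction (10.3%). They were 4 for the genotypes averaged (17.8%) and 0 for exercise averaged (15%). edgeR's quasi-likelihood test on recovered reads also called 0 of the 10 in each comparison, with 0 to 3 at an unadjusted p under 0.05. DESeq2 called 0 except in the averaged genotype comparison, where it called Htr1a. Over all 18175 tested genes DESeq2 called 825 there, against 215 for limma. DESeq2 gave no adjusted p for 7 of the 10 between genotypes under SVE and 5 of the 10 with exercise in wild type. Npy2r was among them in both, and Hcrtr1 under SVE, so DESeq2 could not call these there.

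The fitted differences of the 10 receptors can be set beside those of all tested genes. Between the genotypes under nSVE the median log2 difference (Vipr2-/- minus wild type) was 0.17 over the receptors and -0.10 over all tested genes. Under SVE the medians were 0.24 and -0.10. For exercise they were 0.16 and 0.03 in wild type, and 0.13 and 0.04 in Vipr2-/-. In each of these 4 comparisons 7 of 10 receptors lay above 0, beside 40.7%, 42.0%, 52.8% and 53.6% of all tested genes in the same order. Hcrtr2, which had no read in 7 of the 14 libraries, was among them each time. Htr7 counted at 0.01 between the genotypes under nSVE and at 0.01 with exercise in wild type. The 4 comparisons share groups, so these counts are not independent.

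Htr1a encodes the serotonin receptor that inhibits neurons through Gi/o. In wild-type nSVE its values were 133, 254, 199.6 and 146, and in wild-type SVE 168, 166, 154 and 171. In Vipr2-/- nSVE they were 327, 309 and 522, and in Vipr2-/- SVE 342, 169 and 259. All 3 Vipr2-/- nSVE libraries lay above all 4 wild-type nSVE libraries, which 11.2% of tested genes did in one direction or the other, and under SVE the genotypes overlapped. The mean was 386 ± 118 (SD, n = 3) in Vipr2-/- nSVE and 183 ± 55.6 (n = 4) in wild-type nSVE, a log2 difference of 1.08 ± 0.36 (SE, limma adjusted p = 0.209, 95% interval 0.31 to 1.84). Under SVE the difference was 0.58 ± 0.36 (limma adjusted p = 0.470). Averaged over conditions it was 0.83 ± 0.25 (limma adjusted p = 0.115). That average passed with DESeq2 (0.86, adjusted p = 0.0217) and with limma without Vipr2-/- SVE library 2 (0.96, adjusted p = 0.0418). Over all genes these settings called 825 and 1007, against 215 with limma on all libraries. The 3 highest Htr1a values after library 3 of Vipr2-/- nSVE, the sparsest, also came from libraries with over 10% of genes without reads. Vipr2-/- SVE library 3, at 16.3%, held 259. No wild-type library was above 8.23%, so that share and genotype cannot be fully told apart. With that share as a covariate the difference was 0.72 under nSVE (limma adjusted p = 0.617) and 0.48 on average (0.820). With exercise Htr1a gave -0.10 ± 0.33 in wild type and -0.60 ± 0.39 in Vipr2-/- (limma adjusted p = 0.981 and 0.483).

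Htr1b encodes the Gi/o receptor found largely on axon terminals, where it curbs release, including retinal terminals in the SCN that make their mRNA outside it. Wild-type nSVE libraries held 155, 98.3, 95.1 and 319, and wild-type SVE libraries 260.3, 191, 228 and 197. Vipr2-/- nSVE libraries held 203, 187 and 1.68, and Vipr2-/- SVE libraries 63.3, 202 and 110.1. The groups overlapped in every simple comparison. The value of 1.68, which stood for 2 reads, came from the sparsest library. The fitted genotype difference under nSVE was -1.66 ± 1.11 with that library and 0.41 without it (limma adjusted p = 0.508 and 0.806).

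Htr2a, a Gq-coupled serotonin receptor, had few reads in the SCN. Its values were 71.7, 92.8, 44.6 and 87.0 in wild-type nSVE and 99.4, 47.7, 58.5 and 63.2 in wild-type SVE. They were 2.90, 82.7 and 0 in Vipr2-/- nSVE and 126, 50.1 and 51.5 in Vipr2-/- SVE. Vipr2-/- nSVE libraries 1 and 3 lay below all others, with 2 reads and no read, and library 2 of that group lay among the wild-type values, so the groups overlapped. The genotype difference under nSVE was -3.39 ± 1.12 (limma adjusted p = 0.207), the exercise difference in Vipr2-/- mice 3.34 ± 1.201 (0.256) and the interaction 3.48 (0.472). Without Vipr2-/- nSVE library 2 the genotype and exercise differences were -5.19 and 5.14 and passed (limma adjusted p = 0.00633 and 0.0160). Calls over all genes rose there from 111 to 251 and from 21 to 112. Without library 3, the sparsest, the genotype and exercise differences of Htr2a were -2.001 and 1.95 and did not pass (0.393 and 0.442). In these bulk samples fewer cells with a transcript and less of it per cell cannot be told apart.

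Htr2c, the other Gq-coupled member and one whose mRNA is edited by ADAR enzymes, had the most reads of the 10, 697 to 1956 per library. Its values were 1038, 1054, 979 and 879 in wild-type nSVE and 1042, 789, 1146 and 1047 in wild-type SVE. They were 1344, 1213 and 779.7 in Vipr2-/- nSVE and 1547, 1160.03 and 1204 in Vipr2-/- SVE. The 3 Vipr2-/- SVE libraries lay above the 4 wild-type SVE libraries, the highest of which reached 1146, while the nSVE groups overlapped. The genotype difference under SVE was 0.37 ± 0.19 (limma adjusted p = 0.375) and under nSVE 0.14 ± 0.19 (0.773). The exercise difference was 0.02 ± 0.18 in wild type and 0.25 ± 0.21 in Vipr2-/- (0.996 and 0.595). With its depth this receptor gave the narrowest limits of the 10: the 95% interval of the exercise difference in wild type ran from -0.36 to 0.40. The table lists 8 small RNA genes inside Htr2c, of which the highest value was 3.78.

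Htr7 encodes the Gs-coupled serotonin receptor. It varied little between groups, with means of 317 ± 61.1 and 319 ± 62.6 (n = 4) in wild-type nSVE and SVE and 321 ± 69.5 and 343 ± 32.3 (n = 3) in Vipr2-/-. Its lowest library stood at 241 and its highest at 388. All groups overlapped, and the 4 simple log2 differences ran from 0.01 to 0.12 (limma adjusted p 0.877 to 0.99989). Their 95% intervals together reached from -0.57 to 0.74.

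Npy2r encodes the NPY receptor that in hamsters has been tied to phase shifts by NPY applied to the SCN. Wild-type nSVE libraries held 206, 164, 122 and 144, and wild-type SVE libraries 95.9, 85.6, 46.3 and 103. Vipr2-/- nSVE libraries held 176, 205 and 161, and Vipr2-/- SVE libraries 242, 172 and 184. All 4 wild-type SVE libraries lay below the other 10, so that they overlapped neither wild-type nSVE nor Vipr2-/- SVE. Npy2r was the 1 receptor of 10 without overlap for exercise in wild type, beside 14.7% of tested genes. The mean of wild-type SVE was 82.6 ± 25.2 against 159 ± 35.8 in wild-type nSVE (n = 4 each), a log2 difference of -0.97 ± 0.39 (limma adjusted p = 0.299, 95% interval -1.80 to -0.14). Under SVE the genotypes differed by 1.31 ± 0.42 (limma adjusted p = 0.197, 95% interval 0.41 to 2.21), with a mean of 199 ± 37.4 (n = 3) in Vipr2-/-. Under nSVE the genotype difference was 0.20 ± 0.42 and with exercise in Vipr2-/- mice 0.13 ± 0.45 (0.855 and 0.923). The interaction, the exercise difference in Vipr2-/- minus that in wild type, was 1.10 ± 0.60 (limma adjusted p = 0.527). It also holds the unlike days to entrain and, by the design text, circadian times of the SVE groups. The genotypes averaged differed by 0.75 ± 0.30 (0.204). The exercise difference in wild type stayed between -1.10 and -0.72 when any library was left out, and the genotype difference under SVE between 1.05 and 1.43. With the share of genes without reads as covariate the latter was 1.33. Over all limma and edgeR settings the adjusted p of that genotype difference ran from 0.0963 to 0.703. The oligodendrocyte markers had a summed level of 39129 to 59445 in wild-type SVE, below the 60017 to 81994 of wild-type nSVE, and the astrocyte markers stood at 28987 to 30910.1 against 32458 to 37843. All 5 markers of each list had fitted exercise differences below 0 there. No marker of either list passed in that comparison. The SCN neuron markers had a summed level of 54840 to 63225 in wild-type SVE, above the 47150.5 to 50449.7 of wild-type nSVE. Of these 11 markers 7 had exercise differences above 0 and 4 below. The part of all these markers in the Npy2r values was not tested.

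Npy5r encodes another Gi/o-coupled NPY receptor. Its values were 224, 263, 221 and 303 in wild-type nSVE and 406, 301, 471 and 268 in wild-type SVE. They were 395, 251 and 818 in Vipr2-/- nSVE and 497, 492.9 and 380.4 in Vipr2-/- SVE. Vipr2-/- nSVE library 3 was far above all others, and the groups overlapped in each simple comparison. The genotype difference was 0.79 ± 0.35 under nSVE (limma adjusted p = 0.320), 0.36 ± 0.35 under SVE (0.659) and 0.57 ± 0.25 on average (0.237). Without library 3 of Vipr2-/- nSVE it was 0.33 under nSVE (0.693) and 0.34 on average (0.350). The exercise difference was 0.49 ± 0.32 in wild type and 0.07 ± 0.37 in Vipr2-/- (0.619 and 0.961).

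Npy1r, the Gi/o-coupled neighbour of Npy5r, was steady in wild-type SVE and scattered elsewhere. Wild-type SVE libraries held 413, 386, 380.4 and 415, and wild-type nSVE libraries 311, 169.8, 356 and 567. Vipr2-/- nSVE libraries held 425, 259 and 738, and Vipr2-/- SVE libraries 306, 501 and 206. The groups overlapped throughout. The genotype difference was 0.43 ± 0.41 under nSVE and -0.33 ± 0.41 under SVE (limma adjusted p = 0.659 and 0.747). The exercise difference was 0.31 ± 0.38 in wild type and -0.45 ± 0.44 in Vipr2-/- (0.880 and 0.661). Without Vipr2-/- nSVE library 3 the nSVE genotype difference was 0.05.

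The mix of Npy1r, Npy2r and Npy5r transcripts can be read within a library, where the scaling between libraries cancels. Npy6r, at 122 per kb over the 14 libraries, is left out of this mix. As a share of the summed per-kb level of the 3 genes, Npy2r made up 19.7% ± 6.09 in wild-type nSVE and 8.86% ± 3.15 in wild-type SVE (SD, n = 4). The ranges were 13.1% to 25.5% and 4.44% to 11.9% and did not overlap. These shares use the same Npy2r values as above and are no separate evidence. The sum they are divided by also holds Npy5r, whose mean value was 253 in wild-type nSVE and 362 in wild-type SVE. In Vipr2-/- mice the share was 16.6% ± 8.91 in nSVE and 17.99% ± 4.28 in SVE (n = 3), and the lowest nSVE library had 8.18%. Npy5r made up 47.6% and Npy1r 36.8% on average over the 14 libraries. Among the 5 serotonin receptors Htr2c made up 37.3% and Htr7 30.8%, Htr1a 16.8%, Htr1b 11.5% and Htr2a 3.58%.

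**Figure D3:**
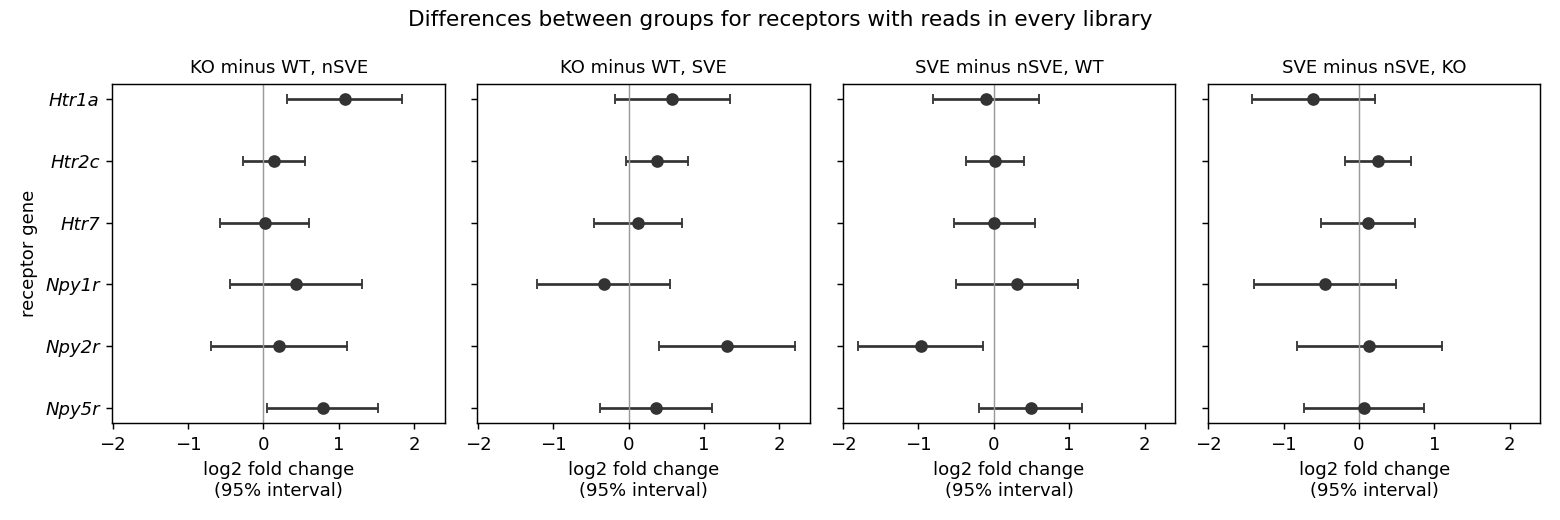
Log2 fold change with its 95% interval from limma for the 6 receptors with at least 57 reads in every library, in the 4 simple comparisons (WT, wild type, KO, Vipr2-/-). The intervals of Htr1a and Npy5r between genotypes under nSVE, and of Npy2r between genotypes under SVE and with exercise in wild type, lie off 0, and none passed after adjustment over all genes.

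Hcrtr1 encodes the orexin receptor that binds orexin A with preference. Its values were 115, 119.6, 31.7 and 73.1 in wild-type nSVE and 73.0, 100.4, 256 and 68.4 in wild-type SVE. They were 16.0, 62.8 and 104 in Vipr2-/- nSVE and 26.9, 52.7 and 0 in Vipr2-/- SVE. All 3 Vipr2-/- SVE libraries lay below the wild-type SVE libraries, and the library at 0 was library 3, among the sparsest, where 3 reads would give 4.29. The genotype difference under SVE was -3.23 ± 1.16 (limma adjusted p = 0.229). It was -1.47 without that library (0.699) and -4.35 without Vipr2-/- SVE library 2, where it passed (0.0486). Without library 2 the calls over all genes rose from 32 to 1100. Averaged over conditions the genotypes differed by -1.94 (0.229), and by -1.06 without Vipr2-/- SVE library 3.

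Hcrtr2, the receptor that binds orexin A and B alike, was close to the limit of detection. It had reads in 1 of 4 wild-type nSVE, 3 of 4 wild-type SVE, 1 of 3 Vipr2-/- nSVE and 2 of 3 Vipr2-/- SVE libraries. The highest value was 47.2, in Vipr2-/- SVE library 3, and stood for 33 reads. At 165 reads over all 14 libraries no fold is given.

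The groups did not overlap for a few of the 10 receptors. Between the genotypes under nSVE this was 1 of 10 (Htr1a), beside 11.2% of genes, and under SVE 3 of 10 (Htr2c, Npy2r and Hcrtr1), beside 14.1%. With exercise it was 1 of 10 (Npy2r) in wild type, beside 14.7%, and 0 of 10 in Vipr2-/- mice, beside 9.99%.

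**Figure D4:**
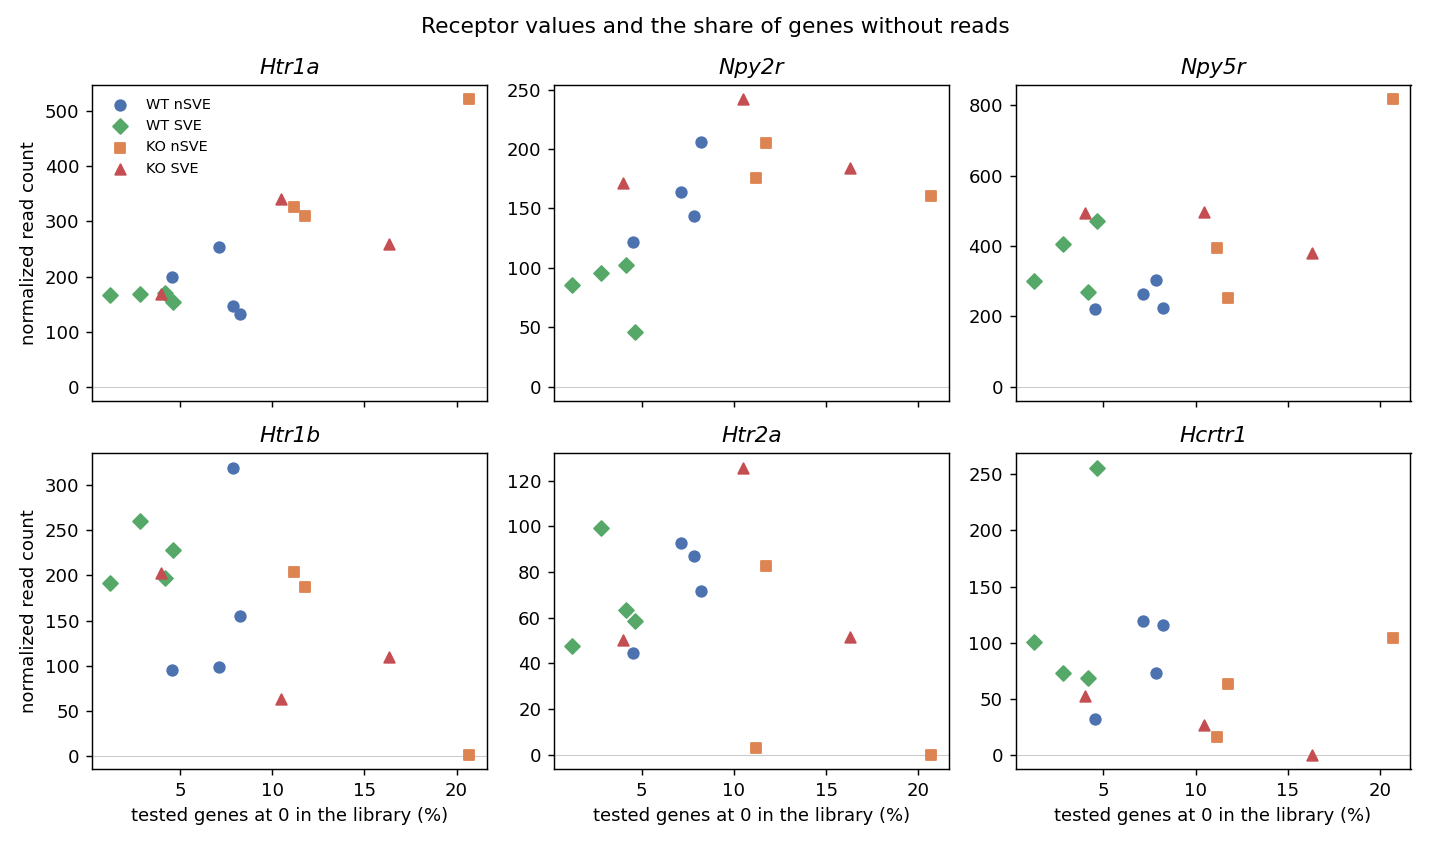
Normalized read count of 6 receptors in each library against the percentage of tested genes without a read in that library (WT, wild type, KO, Vipr2-/-). Htr1a is highest and Htr1b, at 1.68, lowest in the library at 20.7%. Npy2r in wild-type SVE lies below wild-type nSVE library 3 (4.56%) and Vipr2-/- SVE library 2 (3.99%), the libraries nearest in share. Wild-type SVE libraries 1 and 2 (2.81% and 1.22%) have no library of another group at a like share.

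Relations between the receptors across libraries were examined over 45 pairs with the group means taken out. The strongest was between Htr1a and Htr1b with Pearson's r = -0.71 (exact permutation within groups, p = 0.00694, adjusted 0.312) and Spearman's rho = -0.83 (exact permutation p = 0.00969, adjusted 0.436). Without the 2 libraries farthest from the median r was -0.77. The neighbours Npy1r and Npy5r gave r = 0.59 (exact permutation p = 0.0603, adjusted 0.880) and rho = 0.39 (0.214, adjusted 0.829). Their r was 0.73 without the 2 farthest libraries and 0.46 without Vipr2-/- nSVE library 3, where both had their highest value. No pair passed the adjustment.

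The genes whose residual pattern over the 14 libraries was most like each receptor were picked from 12376 genes with a mean of at least 50 and are given as a description. Htr1a was nearest to Zc4h2 (r = 0.91), Smtn and Nipsnap2, and Htr1b to Piga (0.98), Sh3yl1 and Nagpa. Htr2a was nearest to Dck (0.93), Zfp715 and Grsf1, Htr2c to Napg (0.96), Dusp3 and Gpatch2l, and Htr7 to Ptpn12 (0.87), Gpkow and Strn3. Npy1r was nearest to Cux1 (0.93), Unc93b1 and Sctr, Npy2r to Fam131b (0.89), C1d and Cnot4, and Npy5r to Ddx47 (0.92), Lrrn3 and Tacr1. Hcrtr1 was nearest to Prom1 (0.95), Hrh2, a histamine receptor, and Arl16. The 14 points share each library's depth and its missing genes.

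The sources of the ligands named at the start lie outside the nucleus, but reads of Npy were found in these samples. Tph2, which makes serotonin in neurons, and Slc6a4, the serotonin transporter, had no read in any of the 14 libraries. Npy had a mean value of 123 and ranged from 0 to 280.5. Per exonic kb its mean was 217, above the 148 of Npy5r. Its group means were 151 and 123 in wild-type nSVE and SVE and 123 and 85.1 in Vipr2-/- nSVE and SVE, and it was not called in any comparison. Hcrt, the orexin precursor, had reads in 3 of the 14 libraries and reached 24.8.

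Neither the other receptors of these ligands nor the signalling genes behind them passed the test in any of the 7 comparisons. Of 11 further serotonin and NPY receptors 6 could be tested, and 0 were called. All 22 G protein, adenylyl cyclase, phospholipase, potassium channel and editing enzyme genes were tested, and 0 were called. At an unadjusted p under 0.05 there were 0 and 3 of these genes between the genotypes under nSVE, 0 and 6 under SVE, 0 and 1 with exercise in wild type and 1 and 1 in Vipr2-/-. There were 0 and 4 in the interaction, 0 and 4 for the genotypes averaged and 0 and 0 for exercise averaged. The 11 SCN neuron markers did hold called genes. Vip, Avp, Prok2 and Syt10 were lower in Vipr2-/- mice under nSVE (log2 differences -0.92, -1.13, -4.92 and -1.17, limma adjusted p 0.0191 to 0.0361). Avp was lower under SVE (-1.62, limma adjusted p = 0.00642). With exercise in wild type Rgs16 and Nms rose by 1.70 and 0.67 (limma adjusted p = 0.000578 and 0.0378). Averaged over the other factor, the genotype comparison called 4 of the 11, all lower, and the exercise comparison 3 higher and 1 lower. The markers of other hypothalamic neurons (8 of 12 tested), astrocytes, oligodendrocytes, microglia and endothelium (5 each) held no called gene in any comparison.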

How the data were processed

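The labels' design text and the submitters' processing notes name Trimmomatic, FastQC, HISAT2, StringTie and DESeq2, with no versions. The deposited signal per gene and library is a count that the authors divided by a DESeq2 size factor. Whole reads were recovered as multiples of the value of 1 read, within 0.001 reads for 100% of the values. The design text names GRCm38 and the processing notes GRCm39: 54349 of 55401 gene IDs are in GENCODE M21, all with its GRCm38 coordinates, so positions are given in GRCm38.

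Genes at 10 or more in at least 3 libraries (18175, all 10 receptors among them) were tested by limma 3.58.1 (R 4.3.3) with trend on log2(value + 1), 1 mean per group over the 14 libraries, two-sided, with Benjamini-Hochberg adjustment within each comparison. The fold changes are on this scale. The added 1 shrinks those of low genes, but a library at or near 0 can enlarge them beyond what the group means show. For Htr2a between genotypes under nSVE the log2 difference was -3.39, with means of 28.5 in Vipr2-/- and 74.0 in wild type. Settings other than leaving out 1 library gave -3.78 to -1.39. Averaged comparisons weigh both conditions or genotypes equally. Exact permutations within groups (20736 arrangements) tested correlations of residuals. Alternatives included pseudocounts of 0.5 and 10, other filters, TMM, array weights, the replicate number as a block, edgeR 4.0.16, DESeq2 1.42.0, a covariate for genes without reads, and leaving out libraries. Levels per kb used union exon lengths from GENCODE M21. Scripts were tested on simulated data. Intervals cover counting error and spread between libraries only. Reads carry no molecular identifiers.

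The members and lists were chosen with earlier results of these data known. Named are all 10 receptors, Vipr2, Npy, Hcrt, Tph2, Slc6a4, called genes of the lists (up to 4 per list and comparison) and the 3 likest genes of each receptor with a mean of at least 50. Genes named outside this rule, in the closing observations, were chosen after their values were seen.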

Additional observations from a re-analysis of the deposited data

Results flagged for a closer look

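Within the 20 wild-type groups of 4 libraries, 1 per receptor and condition, 2 held a library far from the other 3. Hcrtr1 stood at 256 in wild-type SVE library 3, against 68.4 to 100.4 in the others. Without that library the genotype difference under SVE was -2.81 in place of -3.23 on the log2 scale (limma adjusted p = 0.365 and 0.229). Hcrtr2 stood at 25.4 in wild-type nSVE library 1 and had no read in the other 3. Chance flags about 1 group in 20, and groups of 3 were not examined.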

How the results depend on the processing

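No receptor was called by limma, and under other settings with all libraries DESeq2 called 1 (Htr1a, genotypes averaged, beside 825 of all genes). With a library left out the number called ranged from 0 to 1 for the genotypes (nSVE, SVE and averaged) and for exercise (Vipr2-/- and averaged). It was 0 to 0 for exercise in wild type and the interaction. Over all genes, leaving out 1 library gave 36 to 269, 10 to 1100 and 84 to 1007 calls for the genotypes (nSVE, SVE and averaged). The calls for exercise were 29 to 429 (wild type), 6 to 177 (Vipr2-/-) and 63 to 446 (averaged). Those for the interaction were 1 to 36. DESeq2 gave no adjusted p for 7 receptors between the genotypes under SVE, 5 with exercise in wild type and 1 in each other comparison. Directions turned mainly where differences were near 0. With the share of genes without reads as covariate, Htr1b (0.44) and Htr7 (-0.220) turned between genotypes under nSVE, Htr7 (-0.0949) under SVE, and Htr1a (0.0735) and Htr2c (-0.0589) with exercise in wild type. Leaving out library 3 of both Vipr2-/- groups together, Htr1b (0.41) and Htr7 (-0.0877) turned under nSVE and Npy1r (0.24) with exercise in Vipr2-/-. Between genotypes under nSVE Htr7 also turned with TMM (-0.0035) and array weights (-0.0277), and with exercise in wild type it turned with array weights (-0.0113). Npy5r with exercise in Vipr2-/- was -0.0890 with edgeR and -0.0984 with DESeq2. With 1 library left out, ranges crossing 0 between genotypes under nSVE were -2.72 to 0.41 (Htr1b), -0.0181 to 0.374 (Htr2c) and -0.0906 to 0.209 (Htr7). With exercise in wild type they were -0.243 to 0.0690 (Htr1a), -0.0502 to 0.129 (Htr2c) and -0.0964 to 0.121 (Htr7). With exercise in Vipr2-/- they were -0.0772 to 0.219 (Htr7), -0.0136 to 0.233 (Npy2r) and -0.325 to 0.524 (Npy5r). Apart from omitting a library, whose own construction shows the cause, the cause was not tested.

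With the replicate block 0 receptors were called in each comparison, and all-gene calls fell from 111 to 49, 32 to 17, 233 to 137, 21 to 4, 4 to 0, 215 to 69 and 264 to 108 in the order of the 7 comparisons given in the report. The labels do not tie the numbers together. Over 19 same-numbered pairs residual correlations lay between -0.05 and 0.12, 1 over 0.1, and for 9 of 14 libraries the best match had the same number. Counts of all genes called moved by over 1.5 times under many settings: across the non-omission alternatives they ran from 16 to 525, 6 to 484, 75 to 1693, 0 to 394, 0 to 175, 12 to 825 and 57 to 911. Summed over the 14 libraries, Hcrtr2, Htr2a and Hcrtr1 had the fewest reads of the 10, 165, 948 and 1258, and each had no read in at least 1 library.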

Other observations

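Among other receptors for arousal signals and hormones, 4 had a level per kb above that of Npy5r. The histamine receptor Hrh3 had 1049.6 normalized reads per exonic kb over the 14 libraries and the adenosine receptor Adora1 479, against 148 for Npy5r. The adrenergic receptors Adra2a and Adra1b followed with 194 and 149, and Hrh1 with 116. Of the receptors that share ligands with the 10, Npy6r had 122 per kb, Htr5a 111, Htr6 94.5 and the ion channel subunit Htr3a 86.0, while Htr2b and Htr3b had no read in any library. The melatonin receptor Mtnr1a had 24.6 per kb and Mtnr1b no read.

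None of the 19 tested genes of this arousal list passed with limma in any of the 7 comparisons. At an unadjusted p under 0.05 there were 3 and 2 between the genotypes under nSVE and SVE, 2 and 0 with exercise in wild type and Vipr2-/-, and 1 in the interaction. There were 5 for the genotypes averaged and 2 for exercise averaged. Hrh3 came closest between the genotypes under nSVE, with a mean of 3907 in Vipr2-/- and 2259 in wild type (log2 difference 0.79, limma adjusted p = 0.0501). With exercise in wild type Hrh3 averaged 3431 against 2259 (0.59, limma adjusted p = 0.0872) and the muscarinic receptor Chrm4 185 against 46.3 (2.07, limma adjusted p = 0.0765). Mtnr1a averaged 10.2 in Vipr2-/- SVE and 77.7 in wild-type SVE (-4.48, limma adjusted p = 0.160).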
